A study of Mus musculus with 6 samples.

Results

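The fibroblast growth factor (FGF) ligands and receptors of the embryonic pharynx were described as 10 genes, taken from the expression table by symbol. They were the 6 genes *Fgf3*, *Fgf8*, *Fgf9*, *Fgf10*, *Fgf13* and *Fgf15* and the 4 receptor genes *Fgfr1*, *Fgfr2*, *Fgfr3* and *Fgfr4*. All 10 had a row among the 14647 genes of the table, and 9 of them were among the 13547 genes tested, because *Fgfr4* fell below the filter on low values. The measurement was RNA-seq of the dissected pharyngeal region of mouse embryos at embryonic day 9.5, cut from the junction of the first and second arches down to the base of the heart. The 3 *Pax9*-null embryos carried a loss of both *Pax9* alleles in every cell (*Pax9*-/-), and the 3 controls were wild type and matched to them for somite number. Both groups were on a C57Bl/6J background, were untreated and included females and males. The comparison asked which transcripts change in the pharynx when Pax9, a transcription factor of the pharyngeal endoderm, is missing.

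FGFs are secreted proteins that bind receptor tyrosine kinases at the cell surface together with heparan sulphate, and the bound receptor signals through FRS2 and the MAP kinases. The signal switches on the ETV transcription factors and its own inhibitors, among them the Sprouty and DUSP6 proteins. In the pharynx, FGF8 from epithelium and mesoderm is needed for growth of the arches and their arteries, and FGF10 is a signal from mesenchyme and heart progenitors to neighbouring cells. FGF13 belongs to the intracellular FGFs, which are not secreted as ligands and act on sodium channels and microtubules, mainly in neurons. It was kept among the genes described because its symbol was on the list.

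*Pax9* itself was lower in every *Pax9*-null library. Its log2 RPKM (read count divided by exon length and library size, on the log2 scale) was -0.43, -0.63 and -0.59 in the *Pax9*-null libraries and 0.63, 0.71 and 0.96 in the wild-type libraries, so the labels and the targeted gene matched. The effective library sizes ran from 11509884 to 11728219 reads in the *Pax9*-null libraries and from 12352589 to 12692297 in the wild-type libraries. One library stood apart. In wild-type replicate 3 the summed level of 7 heart muscle markers was 69.5 RPKM, against 1030 to 1379 RPKM in the other 5 libraries, and *Myh6*, a myosin of heart muscle, was at -1.13 log2 RPKM against 3.67 to 6.27. The fold changes of the 9 tested members were therefore also computed without that library. Over all tested genes, 3611 passed the threshold (adjusted *P* of at most 0.1, limma), which is 26.7% of those tested, with 12.0% lower and 14.7% higher in *Pax9*-null tissue. Without *Pax9*-null replicate 1, *Pax9*-null replicate 3, wild-type replicate 1 or wild-type replicate 3, the count of 3611 became 301, 175, 1799 or 2141. Of the 9 members tested, 1 passed. It was *Fgfr1*, and it was lower. With wild-type replicate 3 left out, no member passed, and the log2 fold changes were -0.48 for *Fgfr1*, -0.07 for *Fgfr2*, -0.03 for *Fgfr3*, 0.34 for *Fgf3*, -0.11 for *Fgf8*, 0.07 for *Fgf9*, -0.45 for *Fgf10*, 0.12 for *Fgf13* and -0.04 for *Fgf15*.

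In wild-type tissue the receptors *Fgfr2*, *Fgfr1* and *Fgfr3* had the highest levels per length of the 10 genes, and *Fgfr4* the lowest. The geometric mean level was 15.7 RPKM for *Fgfr2*, 8.10 RPKM for *Fgfr1* and 7.12 RPKM for *Fgfr3*. *Fgf15* led the ligands at 4.05 RPKM, and below it came *Fgf10* at 2.07, *Fgf13* at 1.64, *Fgf8* at 1.63, *Fgf9* at 1.41 and *Fgf3* at 1.02 RPKM. *Fgfr4* was at 0.246 RPKM. Neighbours in this order whose wild-type libraries overlapped were *Fgfr1* and *Fgfr3*, *Fgf10* and *Fgf13*, *Fgf13* and *Fgf8*, *Fgf8* and *Fgf9*, and *Fgf9* and *Fgf3*. Their order was thus not resolved by 3 libraries. In *Pax9*-null tissue *Fgfr2* was again first at 14.5 RPKM, and *Fgfr3* at 5.86 RPKM overlapped with *Fgfr1* at 5.50 RPKM. The tissue was sequenced in bulk, so fewer cells of a type and less RNA per cell cannot be told apart for any of these genes.

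**Figure D1:**
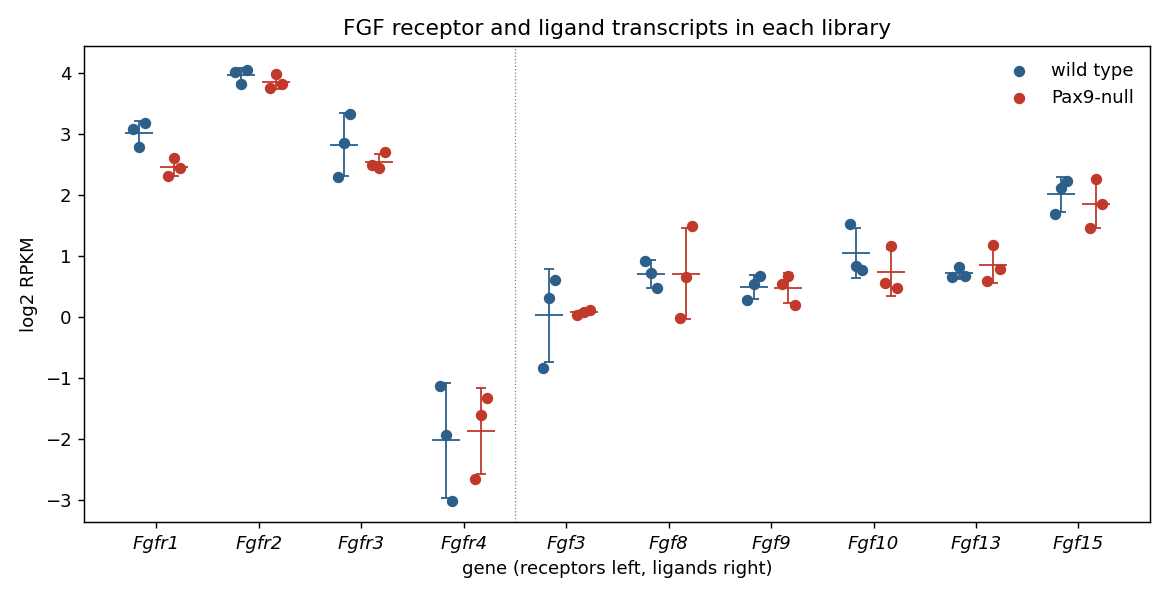
Level of each of the 10 FGF genes in every library, in log2 RPKM on the vertical axis, with genes along the horizontal axis, one point per library coloured by genotype, a horizontal line at each group mean and error bars of 1 SD. The *Pax9*-null points of *Fgfr1* lie between 2.32 and 2.61, below the wild-type points between 2.79 and 3.18. For every other gene the points of the groups overlap.

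*Fgfr1* encodes the receptor most widely expressed in mesenchyme, and it lies on chromosome 8 (25513654 to 25575718, plus strand, GRCm38; ENSMUSG00000031565). Its log2 RPKM was 2.32, 2.61 and 2.44 in *Pax9*-null replicates 1, 2 and 3, and 3.08, 2.79 and 3.18 in wild-type replicates 1, 2 and 3. The groups did not overlap, as was the case for 41.9% of all tested genes (5671 of 13547). Group means were 2.46 ± 0.14 for the null and 3.02 ± 0.20 for the wild-type embryos (SD, n = 3 each), and the log2 fold change was -0.56 with a standard error of 0.14 and a 95% interval of -0.88 to -0.24 (limma, adjusted *P*=0.0474). This puts the *Pax9*-null level at 67.9% of wild type. The values rest on 572, 693 and 630 reads in the *Pax9*-null libraries and 1059, 845 and 1126 reads in the wild-type libraries. An exact permutation test of the 6 values gave *P*=0.1, the smallest that 3 against 3 libraries allow. The call was lost when wild-type replicate 3 (adjusted *P*=0.102), *Pax9*-null replicate 1 (0.177) or *Pax9*-null replicate 3 (0.131) was left out of the limma fit. The same omissions took the calls over all tested genes from 3611 to 2141, 301 and 175, so the loss was not particular to *Fgfr1*. Without any of the other 3 libraries the gene still passed, and over all 6 omissions the fold change lay between -0.67 and -0.48.

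*Fgfr1* is a long and GC-rich gene, and fold changes in these libraries moved with both properties. Its exons span 9875 bp, above 90.5% of the tested genes, and its GC content is 55.4%, above 80.7% of them. Across the 13524 tested genes with a length and a GC content, the fold change had a Spearman correlation of -0.40 with length and -0.44 with GC content. These are correlations across genes, which are not independent replicates. The median log2 fold change was 0.55 in the decile of the shortest genes and -0.20 in that of the longest. It was 0.30 in the decile with the lowest GC content and -0.24 in the one with the highest. When a smooth trend of each library on length and GC content was subtracted, the *Fgfr1* fold change was -0.04 with a 95% interval of -0.29 to 0.21 (adjusted *P*=0.850, limma). Its corrected log2 values were 2.73, 2.68 and 2.72 in the *Pax9*-null libraries and 2.64, 2.67 and 2.95 in the wild-type libraries, and they overlapped. In the same fit 2.17% of all genes passed, among them *Pax9* with a log2 fold change of -1.34 (adjusted *P*=0.0305), and no member did. What the trends with length and GC content come from was not tested.

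**Figure D2:**
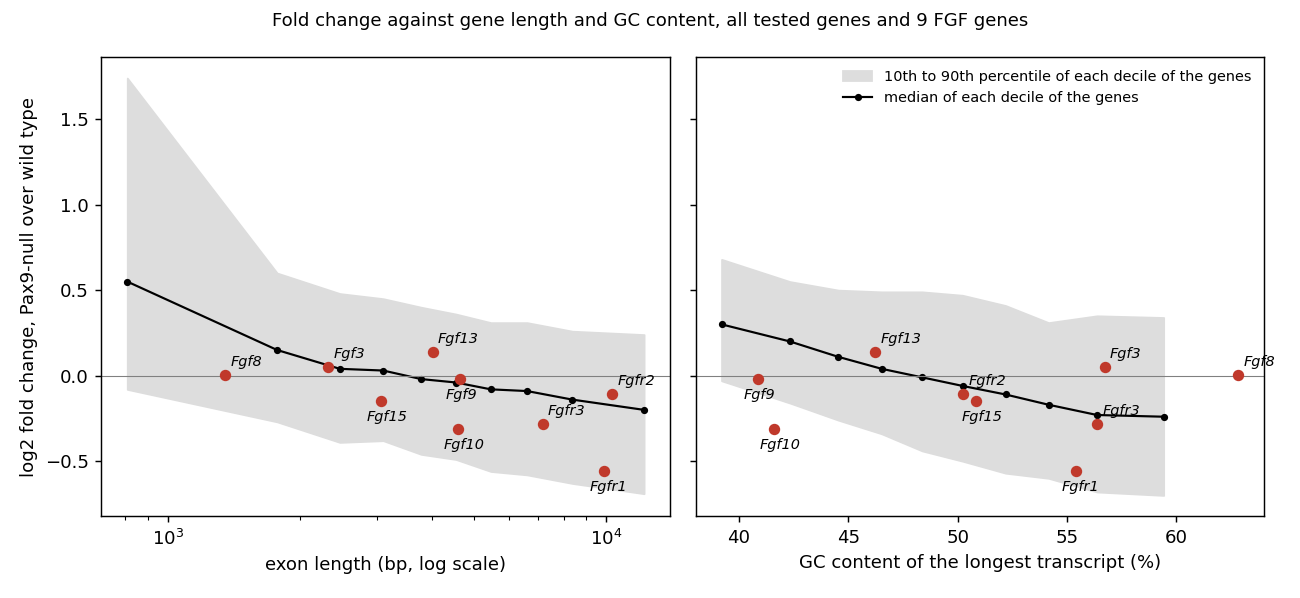
Log2 fold change of *Pax9*-null over wild type on the vertical axis against exon length in bp (left, log scale) and GC content in percent (right). The black line joins the medians of deciles of the tested genes, the grey band spans their 10th to 90th percentiles and the red points are the 9 tested FGF genes. The median goes from 0.55 in the shortest to -0.20 in the longest decile, and *Fgfr1* lies at -0.56 within the band on both sides.

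*Fgfr2*, the receptor whose epithelial form answers FGF10 and whose mesenchymal form answers FGF8 and FGF9, had the highest level and the smallest relative spread of the receptors. It lies on chromosome 7 (130162451 to 133123350, minus strand; ENSMUSG00000030849), and the table does not separate its isoforms. Of its exon bases, 3.04% are shared with *Ctbp2*, a protein-coding gene on the same strand. The libraries gave log2 RPKM of 3.75, 3.99 and 3.83 in *Pax9*-null and 4.02, 3.83 and 4.06 in wild-type libraries, which overlap. The log2 fold change was -0.11 with a 95% interval of -0.35 to 0.13 (limma, adjusted *P*=0.473). With the length and GC trends subtracted it was 0.24, the other direction, with an interval of 0.04 to 0.45 (adjusted *P*=0.193), and the *Pax9*-null libraries then all lay above the wild-type ones. On the values as deposited the groups did not overlap for 41.9% of all tested genes. That share was not counted after subtraction. *Fgfr2* exons span 10328 bp, close to those of *Fgfr1*, at a GC content of 50.2%.

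*Fgfr3*, a receptor of neural tube progenitors and cartilage, varied more between wild-type libraries than between groups. It lies on chromosome 5 (33721674 to 33737068, plus strand; ENSMUSG00000054252). The log2 RPKM values were 2.50, 2.45 and 2.70 in *Pax9*-null libraries and 2.30, 2.86 and 3.33 in wild-type libraries, so that both the lowest and the highest value were wild type. The log2 fold change was -0.28 with a 95% interval of -0.84 to 0.28 (limma, adjusted *P*=0.434). With the length and GC trends subtracted it was 0.19, the other direction (adjusted *P*=0.716). As deposited, it was -0.55 and passed the threshold without wild-type replicate 1 (adjusted *P*=0.0956), and it was -0.03 without wild-type replicate 3. Wild-type replicate 1 was also the lowest library, and wild-type replicate 3 the highest, for the summed level of 8 neural tube progenitor markers. That sum was 22.4, 47.5 and 56.1 RPKM in the wild-type and 41.7, 35.9 and 48.2 RPKM in the *Pax9*-null libraries, and its part in the *Fgfr3* values was not tested. Of the *Fgfr3* exon bases, 13.9% lie under a gene of the opposite strand. The authors counted reads with default settings, which do not use strand and leave reads that match more than 1 gene uncounted. Reads of that stretch may thus be missing from the *Fgfr3* counts.

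*Fgfr4*, a receptor of early muscle and liver, was close to the limit of these libraries. It lies on chromosome 13 (55152640 to 55168759, plus strand; ENSMUSG00000005320). It had 6, 13 and 16 reads in *Pax9*-null libraries and 20, 11 and 5 reads in wild-type libraries. The exact Poisson 95% intervals of the extremes were 12.2 to 30.9 for 20 reads and 1.62 to 11.7 for 5 reads, which cover counting error only. The wild-type libraries thus span the *Pax9*-null ones. The group means of log2 RPKM, -1.86 ± 0.70 for null and -2.02 ± 0.94 for wild-type embryos (SD, n = 3 each), lay within 1 SD of each other, and an exact permutation test gave *P*=0.8.

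Within each library, *Fgfr1* took a smaller share of the summed receptor level in *Pax9*-null tissue. Its share was 20.6%, 22.0% and 20.5% in *Pax9*-null libraries and 28.1%, 24.2% and 25.2% in wild-type libraries, which do not overlap. As deposited, the levels of 41.9% of all tested genes did not overlap either. The summed receptor level was 24.3 to 27.8 RPKM in *Pax9*-null and 28.7 to 35.9 RPKM in wild-type libraries. Shares were taken on the values as deposited only. With the length and GC trends subtracted the *Fgfr1* log2 fold change was -0.04. *Fgfr2* held 55.4%, 57.2% and 53.6% in *Pax9*-null and 54.0%, 49.6% and 46.3% in wild-type libraries, which overlap. The *Fgfr3* share ran from 16.3% to 28.1% in wild-type libraries and enclosed the *Pax9*-null range of 19.6% to 24.4%. The *Fgfr4* share was at most 1.52% in any library.

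The ratio of *Fgfr1* to *Fgfr2* compares, in the same library, 2 genes of near equal length but GC contents of 55.4% and 50.2%. On the log2 scale it was -1.43, -1.38 and -1.39 in *Pax9*-null libraries and -0.94, -1.04 and -0.88 in wild-type libraries. The means, -1.40 ± 0.02 and -0.95 ± 0.08 (SD, n = 3 each), differed by -0.45, and the groups were separate (exact permutation *P*=0.1, the smallest possible, and 0.3 after Benjamini-Hochberg adjustment over 3 receptor ratios). With the length and GC trends subtracted the ratio was -1.25, -1.35 and -1.36 against -1.01, -1.12 and -0.98. The difference was smaller, at -0.28, and the groups still did not overlap. On those values the log2 fold change was -0.04 for *Fgfr1* and 0.24 for *Fgfr2*. The remaining difference thus lay mostly in *Fgfr2*, not in a lower *Fgfr1*. How many other pairs of genes separate the groups in this way was not counted. The ratios of *Fgfr1* to *Fgfr3* and of *Fgfr2* to *Fgfr3* overlapped between groups, with exact permutation *P* values of 0.5 and 0.7. These 3 ratios were chosen after the levels had been seen, and neither test of the *Fgfr1* to *Fgfr2* ratio could have passed 0.05 with 3 libraries a group.

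**Figure D3:**
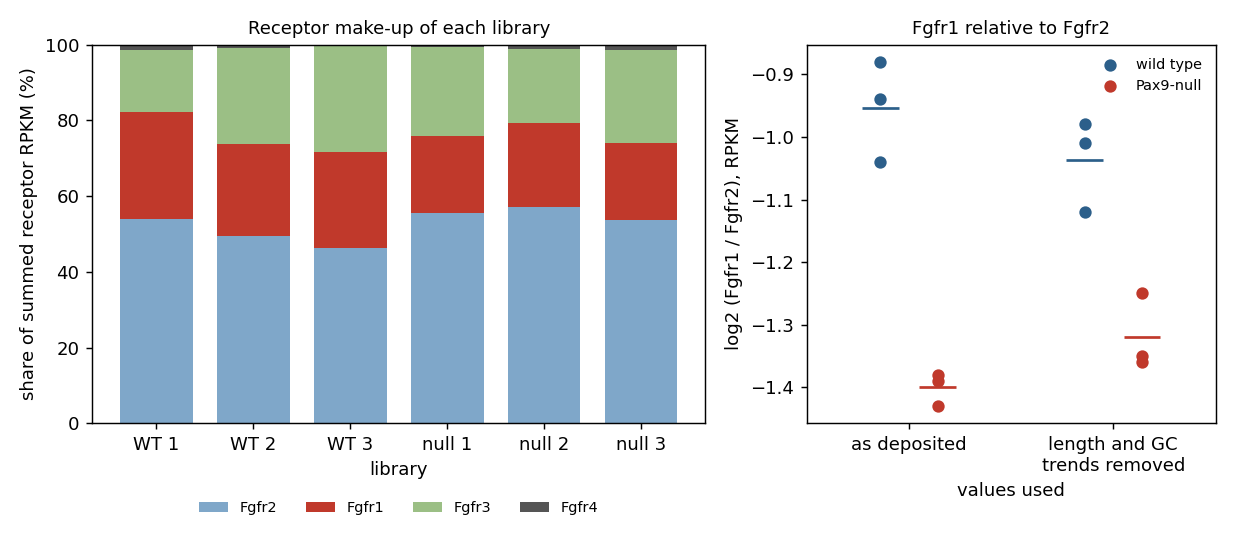
Balance of the 4 FGF receptor genes in the 6 libraries, as each gene's share of the summed receptor RPKM in percent (left, stacked bars) and as the log2 ratio of *Fgfr1* to *Fgfr2* (right, points for libraries and lines for group means, on the values as deposited and with the length and GC trends subtracted). The *Fgfr1* share is 20.5% to 22.0% in *Pax9*-null and 24.2% to 28.1% in wild-type libraries.

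None of the 6 ligand genes passed the threshold, and none had an unadjusted *P* below 0.05 in limma. Their median log2 fold change was -0.01, against a median of 0.00 over all tested genes to 2 decimals. The ligands were measured on 15 to 181 reads a library, so that only large changes could have been resolved, and the intervals below give what sizes remain possible.

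*Fgf8* encodes the ligand with the best known part in arch artery development, and it lies on chromosome 19 (45736798 to 45742915, minus strand; ENSMUSG00000025219). Per library, *Fgf8* was at -0.01, 0.66 and 1.49 log2 RPKM in *Pax9*-null libraries and 0.92, 0.72 and 0.47 in wild-type libraries. The *Pax9*-null libraries held both the lowest and the highest value, and the group means were equal at 0.71 ± 0.75 and 0.71 ± 0.23 (SD, n = 3). The 95% interval of the log2 fold change ran from -0.83 to 0.84 (limma, adjusted *P*=0.995). *Pax9*-null replicate 1 had 15 *Fgf8* reads (exact Poisson interval 8.40 to 24.7) and *Pax9*-null replicate 3 had 44 (32.0 to 59.1). These intervals do not meet, so the 2 libraries, picked as the lowest and highest of the group, differed by more than counting error. With 1 library per embryo, differences between embryos and between library preparations cannot be told apart. Leaving out *Pax9*-null replicate 1 gave a fold change of 0.37 and leaving out *Pax9*-null replicate 3 gave -0.38, and neither passed.

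*Fgf10*, a signal to epithelium from mesenchyme and from the progenitors of the heart outflow tract, lies on chromosome 13 (118669791 to 118792115, plus strand; ENSMUSG00000021732). *Fgf10* was at 0.56, 1.17 and 0.47 log2 RPKM in *Pax9*-null libraries and 1.52, 0.84 and 0.78 in wild-type libraries, which overlap. The log2 fold change was -0.31 with a 95% interval of -0.95 to 0.32 (limma, adjusted *P*=0.441). With the length and GC trends subtracted it was -0.55 with an interval of -1.22 to 0.13 (adjusted *P*=0.314). *Fgf10* was highest in wild-type replicate 1 and next in *Pax9*-null replicate 2. The fold change was -0.08 with the former left out and -0.53 with the latter left out.

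*Fgf15*, a ligand of the neural tube and pharynx that in the adult gut acts as a hormone, had the highest level among the ligands. It lies on chromosome 7 (144896531 to 144900953, plus strand; ENSMUSG00000031073). Its log2 RPKM was 1.46, 2.27 and 1.86 in *Pax9*-null libraries and 1.69, 2.12 and 2.24 in wild-type libraries. The wild-type range lay within the *Pax9*-null range, and the log2 fold change was -0.15 with a 95% interval of -0.70 to 0.39 (limma, adjusted *P*=0.670). An antisense gene, *Gm26793*, covers 24.9% of its exon bases, and reads there cannot be assigned without strand.

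*Fgf3*, a ligand of the hindbrain, the otic region and the pharyngeal pouches, is a neighbour of *Fgf15* on chromosome 7 (144838083 to 144844436, plus strand; ENSMUSG00000031074). Its log2 RPKM was 0.03, 0.09 and 0.11 in *Pax9*-null libraries and -0.84, 0.31 and 0.61 in wild-type libraries. The *Pax9*-null libraries were close together, and the wild-type ones lay on either side of them. The log2 fold change was 0.05 with a 95% interval of -0.79 to 0.89 (limma, adjusted *P*=0.932). The lowest library, wild-type replicate 1, had 16 reads (exact Poisson interval 9.15 to 26.0) and the highest, wild-type replicate 3, had 44 (32.0 to 59.1). These are the libraries that were also lowest and highest in *Fgfr3* and in the neural tube markers. *Fgf4*, the third FGF gene of this stretch of chromosome 7, had a log2 fold change of -0.07 (adjusted *P*=0.881, limma).

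*Fgf9*, a ligand from epithelium that acts on mesenchyme, lies on chromosome 14 (58070547 to 58112720, plus strand; ENSMUSG00000021974). Its log2 RPKM was 0.55, 0.68 and 0.20 in *Pax9*-null libraries and 0.28, 0.54 and 0.67 in wild-type libraries. The ranges were almost the same, and the log2 fold change was -0.02 with a 95% interval of -0.50 to 0.46 (limma, adjusted *P*=0.957). With the length and GC trends subtracted it was -0.28 (adjusted *P*=0.422).

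*Fgf13*, the intracellular member, lies on chromosome X (59062145 to 59568071, minus strand; ENSMUSG00000031137). It was at 0.60, 1.19 and 0.79 log2 RPKM in *Pax9*-null libraries and 0.66, 0.82 and 0.67 in wild-type libraries, which overlap. The log2 fold change was 0.14 with a 95% interval of -0.31 to 0.60 (limma, adjusted *P*=0.635). That interval spans 0, so the direction of *Fgf13* was not resolved. The 10 neuron markers were read in the same libraries. All 10 had a fold change below 0, and 3 of them were called lower (*Cntn2*, *Nefm* and *Elavl3*, named after their values were seen). The summed level of the 10 was 67.0 to 94.4 RPKM in *Pax9*-null against 101 to 187 RPKM in wild-type libraries. *Tubb3*, which was not called (adjusted *P*=0.110, limma), had the highest level of the 10 and dominates that sum. Over all tested genes 12.0% were called lower. Leaving out *Pax9*-null replicate 3 took the count of 3 to 0, leaving out *Pax9*-null replicate 1 took it to 2, and leaving out wild-type replicate 1 or 2 took it to 5. None of the 10 was called with the length and GC trends subtracted, a fit in which 2.17% of all genes were called. Their median log2 fold change was -0.69 as deposited and -0.71 with the trends subtracted, where *Isl2* turned from -0.04 to 0.10.

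**Figure D4:**
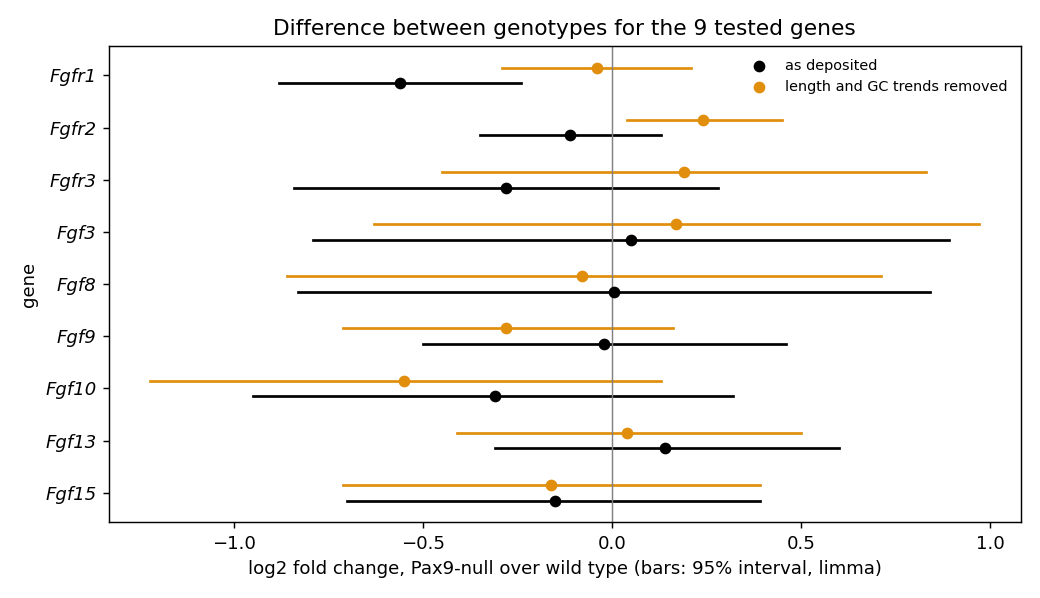
Log2 fold change of *Pax9*-null over wild type for the 9 tested FGF genes, with limma's 95% interval, for the values as deposited and with the length and GC trends subtracted. Only *Fgfr1* has an interval on one side of 0 as deposited (-0.88 to -0.24), and it is at -0.04 after subtraction, where *Fgfr2* has an interval of 0.04 to 0.45.

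Markers of the cell types that the dissected region could hold were read in the same libraries. The 7 pharyngeal endoderm markers in the table, the tissue in which Pax9 acts, were not called in either direction, with summed levels of 80.1 to 96.5 RPKM in *Pax9*-null and 76.3 to 94.7 RPKM in wild-type libraries. *Epcam* and *Cldn6* had the highest levels of the 7 and dominate that sum. Of the 7, 3 had a fold change below 0, and their median was 0.12. *Pax1*, named after its values were seen, was lower in every *Pax9*-null library (log2 fold change -0.74, adjusted *P*=0.101, limma). It was at -0.38 with the trends subtracted. The groups did not overlap for 41.9% of all tested genes. Erythroid markers summed to 2566 to 4741 RPKM in *Pax9*-null and 2327 to 2416 RPKM in wild-type libraries, and 2 of 5 were called higher (14.7% of all tested genes). That count was 5 when *Pax9*-null replicate 2 was left out, 1 when wild-type replicate 2 was, and 0 when any one of the other libraries was. Endothelial markers summed to 43.4 to 58.9 RPKM against 48.7 to 91.3 RPKM, and 2 of 6 were called lower (12.0% of all tested genes). That count was 0 when *Pax9*-null replicate 1, *Pax9*-null replicate 3 or wild-type replicate 1 was left out, and 1 when wild-type replicate 2 was. Markers of neural crest and arch mesenchyme summed to 91.8 to 94.6 RPKM in *Pax9*-null and 84.3 to 86.0 RPKM in wild-type libraries. *Twist1*, with a log2 fold change of 0.35, had the highest level of the 7 and dominates that sum. The sum thus does not give the direction of the list. Of the 7, 4 had a fold change below 0, and their median was -0.18. The part of these cell types in the *Fgfr1* values was not tested. The heart muscle markers, which set wild-type replicate 3 apart, were not called (3 of 7 were called without that library), and *Fgfr1* was at 3.18 log2 RPKM in that library, its highest value.

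**Figure D5:**
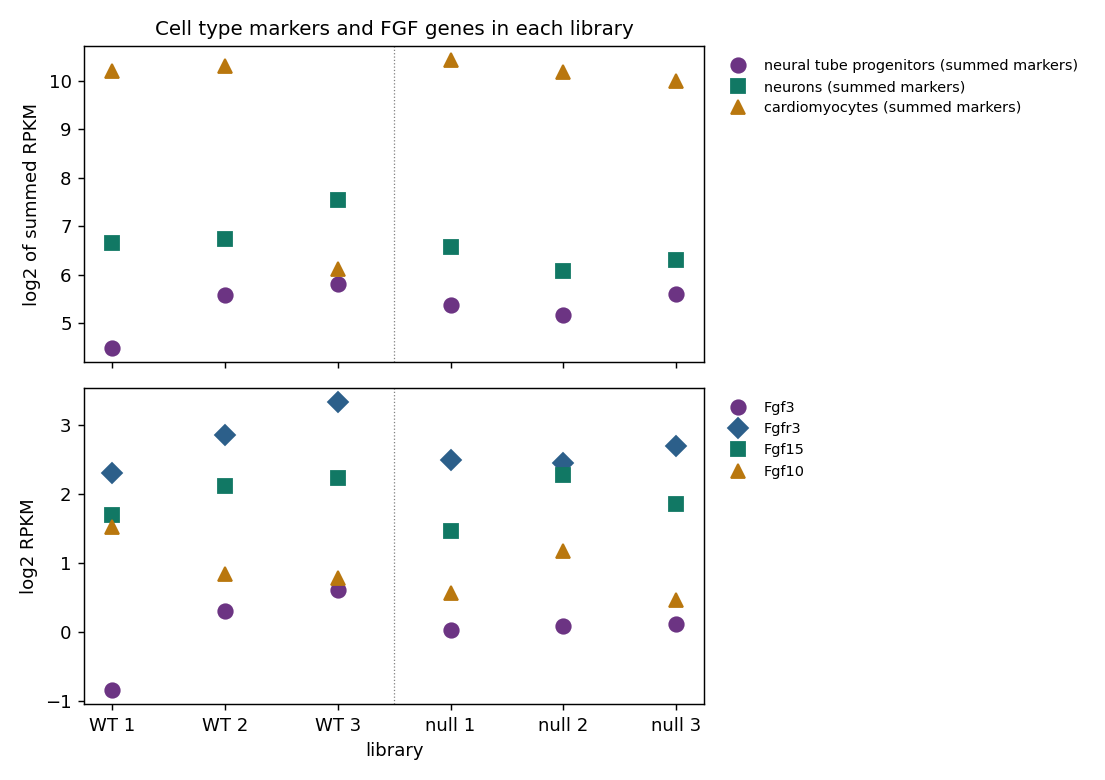
Log2 of the summed RPKM of the neural tube, neuron and heart muscle markers (top) and log2 RPKM of *Fgf3*, *Fgfr3*, *Fgf15* and *Fgf10* (bottom) in each of the 6 libraries along the horizontal axis, wild type left of the dotted line and *Pax9*-null right of it. The neural tube markers, *Fgf3* and *Fgfr3* are lowest in wild-type replicate 1 and highest in wild-type replicate 3, where the heart muscle sum drops to 69.5 RPKM.

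The rest of the pathway was described by 83 further genes in 5 groups, of which 66 were tested. In limma 16 of them were called, 12 lower and 4 higher in *Pax9*-null tissue. This is 24.2%, against 26.7% of all genes tested. With the length and GC trends subtracted 1 gene was called, *Sulf1*. Leaving out *Pax9*-null replicate 1 reduced the count of 16 to 2, leaving out *Pax9*-null replicate 3 reduced it to 1, and leaving out wild-type replicate 1 or 3 reduced it to 7 or 11.

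The genes that make and edit heparan sulphate, the sugar chain that holds FGF on its receptor, were called in 1 direction. Of 13 tested, 6 fell and none rose, where 12.0% of all tested genes were called lower. The count was 0 without *Pax9*-null replicate 1 or 3 and 4 without wild-type replicate 1 or 3. The 13 had a median log2 fold change of -0.26, against 0.00 over all genes, and it became -0.03 with the trends subtracted. *Sulf1*, which removes sulphate groups from the chains and so lowers FGF signalling, fell by 0.79 on the log2 scale (adjusted *P*=0.0309), and by 0.57 (adjusted *P*=0.0459) with the trends subtracted. Its relative *Sulf2* fell by 0.92 (adjusted *P*=0.0378). *Ndst1*, which adds the sulphate that the chain needs, fell by 0.58 (adjusted *P*=0.0392), and *Extl3*, which starts the chain, fell by 0.34 (adjusted *P*=0.0497). With the trends subtracted *Sulf2* was at -0.62 (adjusted *P*=0.115), *Ndst1* at -0.13 (adjusted *P*=0.426) and *Extl3* at 0.0015 (adjusted *P*=0.992), and none of these passed.

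Among co-receptors, decoys and carriers, 2 of 15 tested genes fell and none rose, a share near the 12.0% of all tested genes called lower. *Sdc3*, a core protein that carries heparan sulphate on neurons, fell by 0.90 (adjusted *P*=0.0125), and *Gpc1*, a glypican, fell by 0.62 (adjusted *P*=0.0297). *Sdc3* was called in 6 of 6 fits that left out 1 library and *Gpc1* in 5 of 6. With the trends subtracted *Sdc3* was at -0.41 (adjusted *P*=0.131) and *Gpc1* at -0.17 (adjusted *P*=0.236), and neither passed.

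The intracellular relay was called in 4 of 22 genes, a smaller share than the 26.7% of all tested genes. *Plcg1*, a lipase that the receptors activate directly, fell by 0.69 (adjusted *P*=0.0343), and *Ptpn11*, a phosphatase of the FRS2 complex, fell by 0.30 (adjusted *P*=0.0720). *Crk*, an adaptor, rose by 0.28 (adjusted *P*=0.0806), but it did not pass in any fit without 1 library. With the trends subtracted *Plcg1* was at -0.27 (adjusted *P*=0.139), *Ptpn11* at -0.04 (adjusted *P*=0.772) and *Crk* at 0.13 (adjusted *P*=0.319), and none of these passed. Without *Pax9*-null replicate 1 or 3 none of the 22 was called, and without wild-type replicate 1 or *Pax9*-null replicate 2 the count was 1 or 2.

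The genes that FGF signalling switches on gave 4 calls among 12, in both directions, where 26.7% of all tested genes were called. Of these, *Dusp6* (log2 fold change 0.24, adjusted *P*=0.0735) and *Spred1* (0.27, adjusted *P*=0.0774), both inhibitors of the pathway, rose. *Il17rd*, another inhibitor (-0.56, adjusted *P*=0.0588), and *Etv4*, a transcription factor (-0.56, adjusted *P*=0.0837), fell. The other 8, among them the Sprouty genes, did not pass, and the median of the 12 was -0.19. None of the 12 was called without *Pax9*-null replicate 1, *Pax9*-null replicate 3 or wild-type replicate 1, and 2 were called without wild-type replicate 3. Nor was any called with the trends subtracted, a fit in which 2.17% of all genes were called. There *Dusp6* was at 0.18, *Spred1* at 0.10, *Il17rd* at -0.19 and *Etv4* at -0.30. Of 16 further FGF genes, 9 had no row in the table and 4 were tested, and none of the 4 was called.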

How the data were processed

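RNA of 6 libraries was analysed from 1 deposited table of log2 RPKM values for 14647 genes. Per the paper's methods, the authors trimmed reads (Trimmomatic 0.32 per the labels), kept unique, non-redundant reads, sub-sampled libraries towards the smallest, aligned to GRCm38 with STAR and counted Ensembl genes with featureCounts 1.5.1. The labels name sorted cells and Smart-seq2 libraries, and the methods whole tissue and TruSeq libraries. The latter was followed. The methods do not name the function behind the deposited log2 values. Their form, log2 of reads plus a prior count per length and effective library size, was worked out from the values, and 82.6% of values gave whole reads within 0.05 of a read at GENCODE M21 lengths. The deposited design text calls the 3 samples per genotype biological replicates.

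Log2 values were tested as deposited with limma 3.58.1 (R 4.3.3; trended variance, two-sided, Benjamini-Hochberg over 13547 genes with mean RPKM of at least 0.5, threshold 0.1). Fold changes are null minus wild type. The fit was tested on simulated data. Length and GC trends were subtracted per library by loess (span 0.3, degree 2) over 13524 genes. Members and gene lists were chosen with earlier results of these data known. All members were named, with, from each pathway list, the called genes of lowest adjusted p, at most 4. One gene that this rule names is not reported here. Alternatives were pseudocounts, filters, scaling, library weights, a replicate block and leaving out each library. Spline trends were added after the data were seen. No sample was left out.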

Additional observations from a re-analysis of the deposited data

How the results depend on the processing

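*Fgfr1* passed the threshold in 12 of 19 alternatives, with adjusted *P* from 0.0308 to 0.850 (limma), and the receptor count of 1 went to 0 with length and GC trends subtracted by loess, by additive splines or for GC alone, and ranged from 0 to 2 with 1 library left out. For the splines, which were added after the data were seen, *Fgfr1* was at -0.05 for length and GC together and -0.38 for GC alone. For length alone *Fgfr1* was at -0.36 and still passed (adjusted *P*=0.0794, limma). The cause was not tested. The ligand count of 0 held in each alternative that tested ligands, and no ligand was tested at a mean RPKM of at least 5. Whole-table calls of 3611 became 293 (loess), 503 (additive splines), 1386 (GC spline), 3889 (length spline) and 1335 (threshold 0.05). They ran from 175 to 3578 with 1 library left out, lowest without *Pax9*-null replicate 3. For the same settings the 16 calls among other pathway genes became 1, 3, 8, 22 and 7, and 1 to 15. Deviations of same-numbered libraries correlated at -0.02, -0.17 and 0.26 for replicates 1, 2 and 3, so only replicate 3 deviated together. *Pax9*-null replicate 2 and wild-type replicate 1, which differ in number, correlated at 0.36. A replicate block gave 1377 calls in the table, 6 in the pathway, 0 receptors and 0 ligands, with *Fgfr1* at adjusted *P*=0.103 (limma).

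These fold changes turned direction. *Fgfr2* was 0.24 (loess), 0.20 (additive) and 0.09 (length spline), and *Fgfr3* was 0.19 and 0.16 (loess and additive). *Fgf3* was -0.24 (library weights), -0.01 (pseudocount 1) and -0.06 (length spline), *Fgf8* -0.08 (loess), -0.14 (additive), -0.03 (weights), -0.0047 (quantile) and -0.38 (length spline), and *Fgf9* 0.02 (median centring) and 0.04 (length spline). With 1 library left out, *Fgf3* lay between -0.38 and 0.34, *Fgf8* -0.38 and 0.37, *Fgf9* -0.13 and 0.12, *Fgf10* -0.53 and -0.08, *Fgf13* -0.02 and 0.27, and *Fgf15* -0.36 and 0.05. Depth limits the ligands and *Fgfr4* most, at 181 reads a library or fewer.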

Other observations

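Other marker lists gave the following values, and the genes named were picked after their values were seen. Surface ectoderm markers summed to 24.5 to 28.5 RPKM in *Pax9*-null and 20.4 to 23.3 RPKM in wild-type libraries, and 1 of 4 tested was called higher. Among neural crest and arch mesenchyme markers, *Twist1* was called higher (log2 fold change 0.35, adjusted *P*=0.0399, limma) and *Sox10*, a marker of migrating and glial crest, lower (-0.59, adjusted *P*=0.0828). Among 6 pharyngeal mesoderm markers *Tcf21* was called higher (0.40, adjusted *P*=0.0971), and the sums were 20.01 to 26.8 RPKM against 15.1 to 21.6 RPKM. Of 5 otic markers, 2 had a row and 1 was tested and not called, with sums of 1.10 to 2.07 RPKM in *Pax9*-null and 1.37 to 4.40 RPKM in wild-type libraries. None of the 7 neural tube markers tested was called. Without *Pax9*-null replicate 1 or 3 no surface ectoderm, crest and arch mesenchyme or pharyngeal mesoderm marker was called, and *Tcf21* passed in 1 of 6 fits that left out a library. Over all tested genes 14.7% were called higher and 12.0% lower.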
